A study of Mus musculus with 45 samples.

Results

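The 4 receptors of the opioid family and the precursor of nociceptin were followed in the nucleus accumbens of mice that had drunk alcohol or water with or without chemogenetic stimulation. The genes were chosen by name: Oprm1 (mu receptor), Oprd1 (delta receptor), Oprk1 (kappa receptor), Oprl1 (nociceptin receptor) and Pnoc (prepronociceptin). All 5 symbols were found among the 24421 gene symbols of the deposited count files, and all 5 passed the filter on low counts, as did 15852 genes in all. With edgeR, 0 of the 5 passed an adjusted p under 0.05 in each of 7 comparisons of fluid or treatment. Over all tested genes the share called was 0% for alcohol against water under vehicle, 0% under CNO, 0% averaged over treatments and 0% for the interaction. For CNO against vehicle it was 0.871% among alcohol drinkers (138 genes, and 0 without 3 libraries rich in microglia markers), 0.0694% among water drinkers and 0.889% averaged over fluids. Between mice of a group, Oprm1 moved with Oprd1 (r = 0.69) and Oprl1 moved with Pnoc (r = 0.55). These pairs were not the closest relations of the genes. Among 14156 genes the highest r was 0.92 for Oprm1, 0.85 for Oprd1, 0.79 for Oprl1 and 0.81 for Pnoc, each with a gene outside the 5.

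The 45 libraries each came from 1 female mouse of HDID-1, a line selectively bred for high blood alcohol after drinking in the dark. There were 4 groups: 12 mice drank alcohol and were given CNO, 11 drank alcohol and were given vehicle, 11 drank water and were given CNO, and 11 drank water and were given vehicle. Every mouse, controls included, had received 0.5 uL each of an rAAV2/5 virus carrying Cre-GFP under the CMV promoter and an rAAV2 virus carrying Cre-dependent hM3Dq-mCherry under the neuronal hSyn promoter, in the accumbens of both hemispheres. hM3Dq is an engineered muscarinic receptor coupled to Gq that responds to CNO. Drinking sessions ran daily for 6 weeks. All mice had vehicle in week 1, CNO (1 mg/kg) or vehicle from week 2 to week 5, and vehicle again in week 6, so the last treatment in every group was vehicle. The labels give no ages, and the whole punch was sequenced, so infected and uninfected cells are mixed. In such bulk tissue, fewer cells of a type and less RNA per cell cannot be told apart.

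Opioid receptors are receptors of the Gi and Go class: when bound they lower cyclic AMP, open GIRK potassium channels and reduce transmitter release. Enkephalins act mainly on the delta and mu receptors, dynorphins on the kappa receptor and beta-endorphin on the mu receptor. Nociceptin binds only the nociceptin receptor with high affinity, and that receptor has little affinity for the classical opioid peptides. In the accumbens, medium spiny neurons make enkephalin (those with the D2 dopamine receptor) or dynorphin (those with the D1 receptor). Mu receptors are enriched in the striosomes of the striatum, delta receptors are made by medium spiny neurons and cholinergic interneurons, and kappa receptors sit on dopamine terminals as well as on local cells. Mu and kappa receptors are known for opposite effects on reward, and opioid antagonists reduce alcohol drinking.

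The peptides that these receptors read differ at their start, and that is why their coding bases are set beside each other here. The bases below are from the annotated mouse transcripts (GENCODE M21), 5′ to 3′, and the capitals mark the first 4 codons. In Penk these codons spell the opioid core that begins with tyrosine, and in Pnoc the first codon is one for phenylalanine. The core is found in 7 copies in the Penk reading frame, and the corresponding core of nociceptin is found in 1 copy in Pnoc. The stretch shown is the first such peptide of both precursors.
Pnoc, nociceptin, 17 codons: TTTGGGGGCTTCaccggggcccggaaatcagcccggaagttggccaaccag
Penk, enkephalin, 5 codons: TACGGAGGCTTCatg

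Among the promoters of the 3 receptors with matched windows, that of Oprd1 was the richest in G and C. RefSeq windows of 300 bases (250 before to 50 after a start site, GRCm38.p6) were matched for 3 of the 5 genes, Oprm1, Oprd1 and Oprl1, with 3 windows for Oprm1, 1 for Oprd1 and 3 for Oprl1. A window of each is shown, chosen after the scan, because Oprm1 and Oprd1 moved together between mice (r = 0.69) and Oprl1 had r = 0.21 and 0.08 with them. The windows were scanned on both strands for short motifs. The E-box was searched as CACGTG. The GC box was searched as GGGCGG. The TATA box was searched as TATAAA. The CCAAT box was searched by those letters. The core of the cyclic AMP response element was searched as TGACG. Capitals mark matches to all but the last of these.
Oprm1, chr10:6788320-6788619, plus strand: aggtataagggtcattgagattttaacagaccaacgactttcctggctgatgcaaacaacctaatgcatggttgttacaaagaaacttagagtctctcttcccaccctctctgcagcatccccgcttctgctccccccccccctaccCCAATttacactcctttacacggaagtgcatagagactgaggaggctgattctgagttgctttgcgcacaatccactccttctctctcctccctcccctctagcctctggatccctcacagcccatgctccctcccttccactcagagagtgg
Oprd1, chr4:132144437-132144736, minus strand: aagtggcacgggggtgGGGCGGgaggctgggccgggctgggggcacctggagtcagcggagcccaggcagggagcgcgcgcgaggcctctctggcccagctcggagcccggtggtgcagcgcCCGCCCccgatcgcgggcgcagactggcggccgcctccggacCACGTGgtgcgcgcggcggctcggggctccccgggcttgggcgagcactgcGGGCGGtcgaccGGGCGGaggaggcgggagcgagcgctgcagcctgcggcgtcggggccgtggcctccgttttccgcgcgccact
Oprl1, chr2:181714766-181715065, plus strand: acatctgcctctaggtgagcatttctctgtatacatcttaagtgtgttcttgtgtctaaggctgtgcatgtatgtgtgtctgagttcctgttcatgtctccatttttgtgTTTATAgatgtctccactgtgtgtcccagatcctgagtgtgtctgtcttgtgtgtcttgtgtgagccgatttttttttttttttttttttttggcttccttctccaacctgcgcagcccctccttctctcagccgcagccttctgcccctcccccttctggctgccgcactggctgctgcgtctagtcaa

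The Oprd1 window was 79.3% G and C, above 98.7% of 32817 mouse windows, and held 43 CpG. It held 1 E-box, a match found in 7.1% of windows, and 4 GC boxes, which 35.6% of windows hold at least once. The Oprm1 window was 52.0% G and C with 4 CpG and held 1 CCAAT match, against 37.4% of windows with any. Of the other Oprm1 windows, the first had 47.3% G and C, 3 CpG and no match, and the third had 52.3%, 5 CpG and 1 CCAAT match. The Oprl1 window was 47.7% G and C with 5 CpG and held 1 TATA box, found in 13.6% of windows. The other Oprl1 windows had 53.7% and 49.7% G and C with 2 CpG each and no match, so Oprm1 and Oprl1 overlapped in composition. TGACG was in none of these windows and in 20.8% of all windows. The median window had 52.7% G and C and 7 CpG. These are matches of letters only.

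On GRCm38 the genes lie at chr10:6758506-7038198 (Oprm1, plus strand, 31 annotated transcripts), chr4:132110726-132144486 (Oprd1, minus, 1 transcript), chr1:5588466-5606131 (Oprk1, plus, 5 transcripts), chr2:181715016-181720985 (Oprl1, plus, 11 transcripts) and chr14:65400673-65425472 (Pnoc, minus, 2 transcripts). The counts give 1 value per gene symbol, so isoforms cannot be told apart. Oprm1 shares 96 exonic bases with Ipcef1, which lies on the opposite strand, and the strand setting of the counting is not given. Ipcef1 was at 49.5 CPM ± 12.7 (SD, n = 45) and its group-centred level had r = -0.08 with that of Oprm1. Oprm1 also overlaps Gm10945 on the opposite strand, with no shared exonic base. The annotation used has no gene that overlaps the other 4.

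The libraries held 26.8 M to 39.5 M reads assigned to genes. Markers of medium spiny neurons were abundant in each: Drd1 averaged 243 CPM ± 28.6 and Drd2 122 CPM ± 16.2 (SD, n = 45), and all 13 listed markers were detected in every library. Genes listed as markers of neighbouring regions were detected as well. The 10 cortical projection markers summed to between 177 and 1001 CPM. The 10 septal and preoptic markers summed to between 214 and 338 CPM, with Dlk1 alone at 115 to 212 CPM. There were 3 libraries that stood apart on the microglia markers (mean log2 CPM of the list): alcohol vehicle replicates 5 and 10 scored 7.17 and 6.54 and water vehicle replicate 9 scored 6.21, against 5.20 to 5.97 in the other 42. The lymphocyte score was 4.76 and 3.69 in the alcohol vehicle pair and 1.27 in the water vehicle library, and up to 2.02 elsewhere. Without these 3 libraries the genes called for CNO numbered 0 in alcohol drinkers (138 with them), 29 in water drinkers (11 with them) and 57 averaged over fluids (141 with them). Nothing in the labels names a batch; the S numbers in the sample titles were read as 8 blocks, an inference from the titles.

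Per kilobase of exon, the nociceptin receptor was the most abundant of the family. Exon lengths are from GENCODE M21, while the annotation behind the counts is not given, so the exons counted can differ. Oprl1 averaged 13.2 CPM per kb ± 1.26 (SD, n = 45), Oprk1 7.57 ± 0.949, Oprd1 6.92 ± 1.01, Pnoc 2.34 ± 0.652 and Oprm1 1.65 ± 0.339. The ranges of mean ± SD overlapped for Oprk1 and Oprd1 and for Pnoc and Oprm1, and for no other neighbours in this order. The order depends on the length used for the longer genes: over the longest transcript in place of all exons, Oprl1 was at 15.9 CPM per kb, Oprk1 at 14.8, Oprd1 at 6.92, Oprm1 at 5.48 and Pnoc at 2.34. The peptide precursors of the medium spiny neurons were far above all of these, with Penk at 659 CPM per kb and Pdyn at 103, while Pomc, the precursor of beta-endorphin, was at 1.11.

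**Figure D1:**
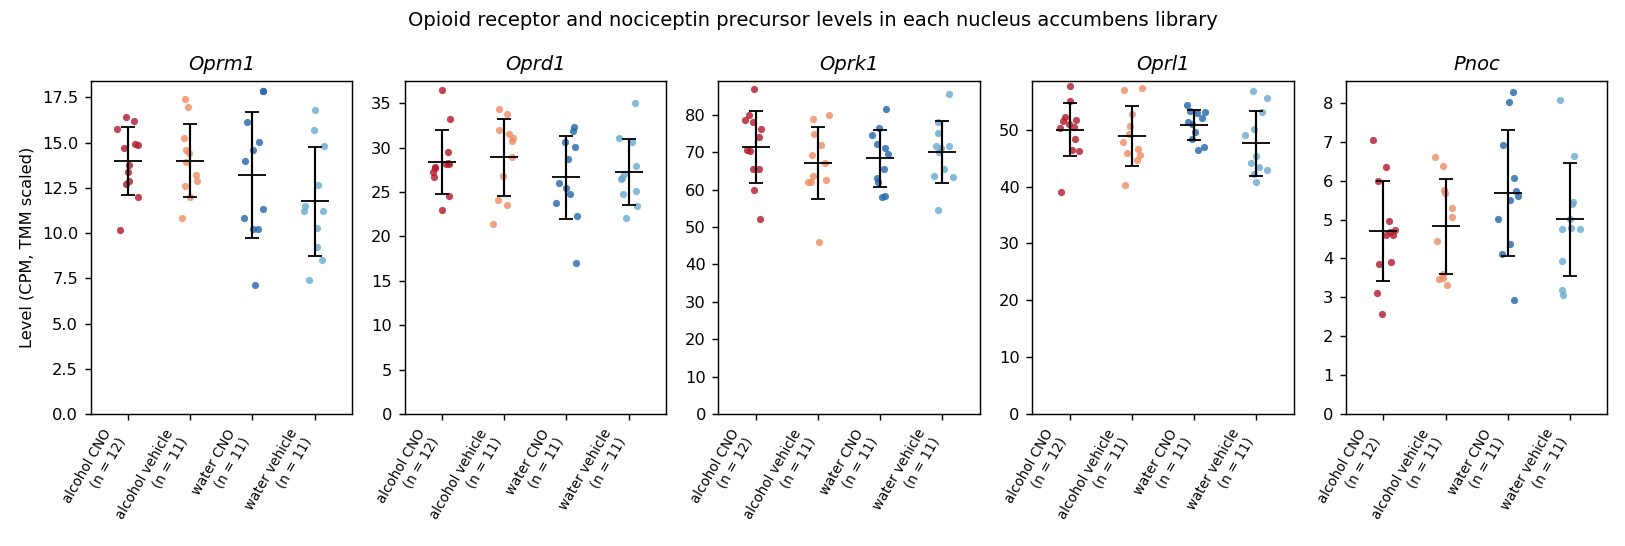
Level of each gene in CPM (TMM scaled, linear axis from 0) in every library, by group, with each point 1 mouse and the black marks the group mean and SD. The groups overlap for all 5 genes, and the lowest Oprm1 values (7.14 and 7.42 CPM) are from water drinkers.

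Oprm1, the receptor for beta-endorphin and enkephalin and the target of morphine and naltrexone, had the smallest p of the 5 genes for alcohol under vehicle and averaged over treatments, though not under CNO. It ranged from 10.2 to 16.4 CPM (median 14.2, mean 14.0 ± 1.86) in alcohol CNO mice and from 10.8 to 17.4 CPM (median 13.9, mean 14.0 ± 2.01) in alcohol vehicle mice. In the water CNO group it ranged from 7.14 to 17.9 CPM (median 14.0, mean 13.2 ± 3.49), and in water vehicle mice from 7.42 to 16.8 CPM (median 11.2, mean 11.8 ± 3.00). The highest libraries of the 4 groups lay close together, and 4 of 22 water libraries lay below the lowest of the 23 alcohol libraries. With vehicle, 10 of 11 alcohol drinkers were above the median of the water drinkers, and the log2 fold change was 0.25 ± 0.13 (SE; 95% interval -0.0011 to 0.50). That difference did not pass (edgeR p = 0.051, adjusted p = 0.597). It was 0.29 without the 3 libraries rich in microglia markers (edgeR p = 0.0407, adjusted p = 0.603).

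With CNO the alcohol over water difference of Oprm1 was 0.08 (95% interval -0.16 to 0.33). Averaged over treatments it was 0.17 (-0.01 to 0.34; edgeR p = 0.0626, adjusted p = 0.443), with 21 of 23 alcohol libraries above the median of the water libraries and a higher alcohol mean in 7 of 8 blocks. The interval reaches to a fold of 1.27. The share of reads outside annotated genes (no-feature share) averaged 19.3% ± 1.37 in alcohol CNO and 18.6% ± 1.31 in alcohol vehicle mice, against 18.1% ± 1.45 in water CNO and 18.6% ± 2.12 in water vehicle mice (SD). With this share in the model the averaged difference was 0.20 (edgeR p = 0.0315, adjusted p = 0.227). For CNO against vehicle, Oprm1 had -0.0022 (-0.25 to 0.24) in alcohol drinkers (-0.05 without the 3 libraries) and 0.17 (-0.09 to 0.42) in water drinkers.

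Oprd1, the receptor for enkephalins, had its lowest and highest library in CNO groups. It ranged from 23.0 to 36.5 CPM (median 28.0, mean 28.4 ± 3.56) in alcohol CNO mice and from 21.4 to 34.3 CPM (median 30.7, mean 28.9 ± 4.34) in alcohol vehicle mice. In the water CNO group it ranged from 17.0 to 32.4 CPM (median 26.0, mean 26.6 ± 4.67) and in water vehicle mice from 22.0 to 35.0 CPM (median 26.6, mean 27.3 ± 3.74). The groups overlapped over nearly their whole range, with 1 water library below all alcohol libraries and 1 alcohol library above all water libraries. Alcohol averaged over treatments gave a log2 fold change of 0.09 (95% interval -0.04 to 0.21; edgeR adjusted p = 0.581) and CNO averaged over fluids -0.03 (-0.16 to 0.10; adjusted p = 0.959). The CNO value was -0.06 without the 3 libraries rich in microglia markers.

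Oprk1, the dynorphin receptor, was the receptor with the most reads, 1608 to 3054 per library. It ranged from 52.2 to 87.0 CPM (median 72.3, mean 71.5 ± 9.60) in alcohol CNO mice and from 46.1 to 79.9 CPM (median 67.2, mean 67.1 ± 9.56) in alcohol vehicle mice. In the water CNO group it ranged from 58.0 to 81.4 CPM (median 69.5, mean 68.4 ± 7.67) and in water vehicle mice from 54.6 to 85.5 CPM (median 71.0, mean 69.99 ± 8.26). The group means lay within 1 SD of each other. The lowest value belonged to alcohol vehicle replicate 5, the library with the highest microglia score. CNO in alcohol drinkers gave 0.09 (95% interval -0.06 to 0.24; edgeR adjusted p = 0.996), and 0.03 without the 3 libraries rich in microglia markers. Alcohol averaged over treatments gave 0.0024 (-0.11 to 0.11), and 0.03 without those libraries.

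Oprl1, the nociceptin receptor, was the steadiest of the genes. It ranged from 39.1 to 57.7 CPM (median 50.7, mean 50.01 ± 4.70) in alcohol CNO mice and from 40.3 to 57.4 CPM (median 47.9, mean 48.9 ± 5.24) in alcohol vehicle mice. In the water CNO group it ranged from 46.5 to 54.3 CPM (median 51.4, mean 50.9 ± 2.66) and in water vehicle mice from 40.8 to 56.9 CPM (median 45.3, mean 47.6 ± 5.67). All 11 water CNO libraries were above the water vehicle median, within a range that the water vehicle libraries also covered. CNO in water drinkers gave a log2 fold change of 0.10 (95% interval -0.02 to 0.21; edgeR adjusted p = 0.864), a fold of at most 1.16 at the upper bound. Alcohol averaged over treatments gave 0.01 (-0.07 to 0.09).

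Pnoc, the only source of nociceptin, was the least abundant by reads, with 88 to 260 per library. It ranged from 2.57 to 7.05 CPM (median 4.65, mean 4.70 ± 1.29) in alcohol CNO mice and from 3.32 to 6.60 CPM (median 5.07, mean 4.83 ± 1.22) in alcohol vehicle mice. In the water CNO group it ranged from 2.93 to 8.28 CPM (median 5.60, mean 5.69 ± 1.62) and in water vehicle mice from 3.05 to 8.09 CPM (median 4.79, mean 5.01 ± 1.45). All groups overlapped, and no alcohol library exceeded the highest water library. Under CNO, 3 of 12 alcohol drinkers were above the water median, with a log2 fold change of -0.27 (95% interval -0.60 to 0.06; edgeR adjusted p = 0.809). CNO in water drinkers gave 0.18 (-0.15 to 0.52) and CNO in alcohol drinkers -0.04 (-0.37 to 0.29). The interaction, CNO in alcohol drinkers minus CNO in water drinkers, was -0.22 (-0.69 to 0.25).

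Counting error accounts for a small part of this spread. The within-group coefficient of variation was 20.1% for Oprm1, 14.7% for Oprd1, 12.8% for Oprk1, 9.54% for Oprl1 and 27.7% for Pnoc. Counting alone gives 4.95%, 3.39%, 2.14%, 2.53% and 8.11% for the same genes. Pnoc varied more within groups than 93.1% of 14156 expressed genes and Oprm1 more than 86.4%, whereas Oprl1 varied more than 48.8%.

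**Figure D2:**
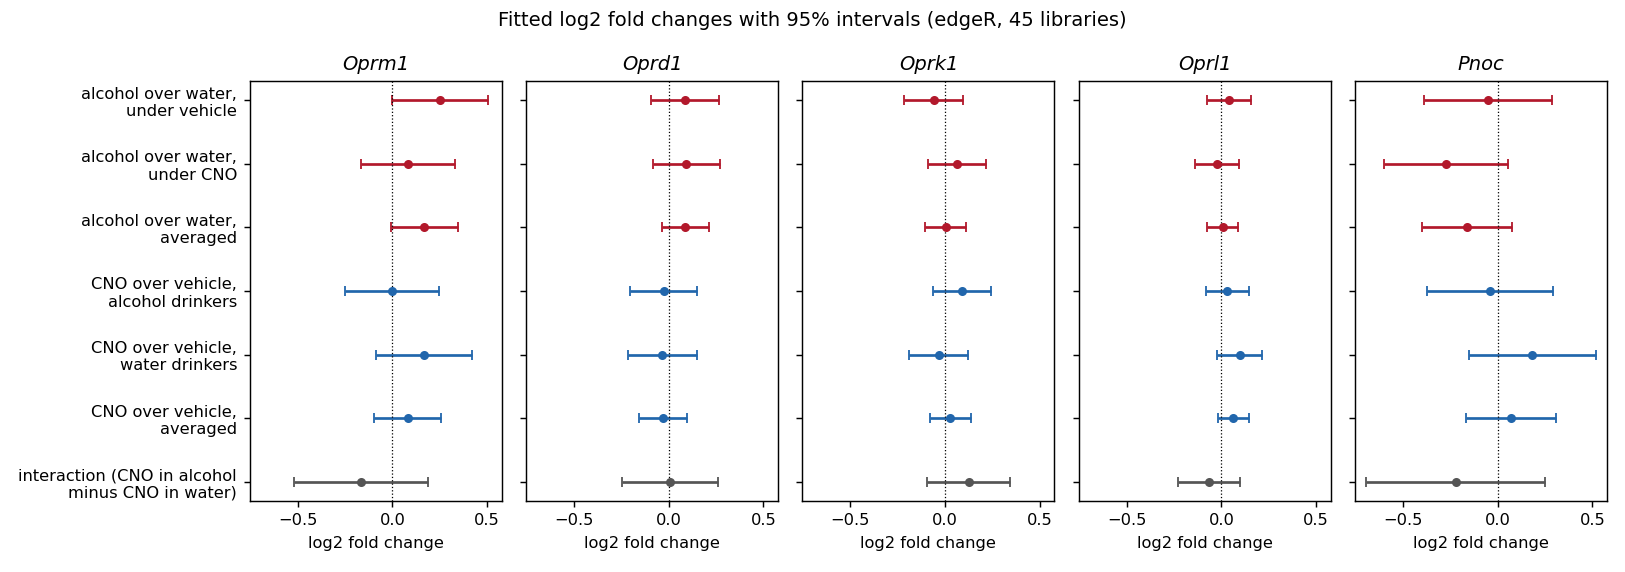
Fitted log2 fold change (points) with 95% intervals (bars) of each gene in the 7 comparisons, from edgeR over all 45 libraries. Every interval includes 0, and Pnoc and Oprm1 have the widest intervals.

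An unadjusted p under 0.05 was reached by 0 of the 5 genes in each of the 7 comparisons with the main edgeR fit. For Oprm1 with alcohol under vehicle, edgeR gave p = 0.0398 with the no-feature share in the model (adjusted p = 0.392). It gave p = 0.0407 without the 3 libraries rich in microglia markers (adjusted p = 0.60) and p = 0.0491 with only the groups compared (adjusted p = 0.768). In some edgeR fits with 1 library left out, 1 of the 5 genes was also under 0.05. DESeq2 and voom also called 0 at an adjusted p under 0.05. For Oprm1 with alcohol under vehicle the unadjusted p was 0.0102 with voom and 0.0454 with DESeq2, and the adjusted p 0.516 and 0.57. With voom the unadjusted p was also under 0.05 for Oprm1 with alcohol averaged (p = 0.0102, adjusted p = 0.178) and for Oprl1 with CNO in water drinkers (p = 0.0276, adjusted p = 0.415) and CNO averaged (p = 0.0456, adjusted p = 0.465). The 95% edgeR intervals of the averaged comparisons allow differences of up to 1.08-fold for Oprk1 and 1.27-fold for Oprm1 with alcohol, and up to 1.24-fold for Pnoc with CNO. For Pnoc with alcohol the interval reaches down to a fold of 0.759.

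The other opioid peptides were likewise without calls. Penk averaged 1080.0 CPM ± 138 in alcohol CNO mice, 1084 CPM ± 138 in alcohol vehicle mice, 1038 CPM ± 103 in water CNO mice and 1103 ± 103 in water vehicle mice. Its log2 fold change with CNO averaged over fluids was -0.05 (95% interval -0.14 to 0.05; edgeR adjusted p = 0.871). Pdyn averaged 299.8 CPM ± 36.6 in alcohol CNO mice, 308 CPM ± 36.0 in alcohol vehicle mice, 284 CPM ± 32.7 in water CNO mice and 295 ± 26.9 in water vehicle mice. Its log2 fold change was 0.07 (-0.02 to 0.16; adjusted p = 0.549) for alcohol averaged over treatments. Pomc lay at 1.36 to 1.53 CPM in the group means.

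Around the receptors, 66 genes of 8 lists were measured: the 3 other precursors, enzymes that make and break the peptides, G protein subunits, GIRK channels, receptor kinases and arrestins, regulators of G protein signalling (RGS) and adenylyl cyclases. With edgeR 0 of the 66 passed in any of the 7 comparisons, and 8 had an unadjusted p under 0.05 for CNO averaged and 3 for alcohol averaged. Over all tested genes the share under 0.05 was 9.3% for CNO averaged and 12% for alcohol averaged, so these counts are no result about the lists. Their median log2 fold change was 0.01 in both averaged comparisons, against 0.00 over all tested genes. These lists were put together with earlier results of the data known, so the counts describe them only.

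Among the 12 genes of peptide processing, Pcsk1n, the precursor of a proprotein convertase inhibitor, had the smallest p for alcohol averaged over treatments. The median log2 fold change of the 12 was -0.01, with 0.02 under vehicle and -0.04 under CNO. Pcsk1n averaged 357 CPM ± 64.3 (SD, n = 23) in alcohol drinkers and 404 CPM ± 28.8 (n = 22) in water drinkers, a log2 fold change of -0.18 ± 0.06 (SE; edgeR adjusted p = 0.283). The 11 genes of peptide breakdown had a median of 0.08 for alcohol averaged over treatments, with 0.05 under vehicle and 0.06 under CNO. Lnpep, an aminopeptidase, averaged 61.0 CPM ± 7.94 in alcohol drinkers and 50.5 CPM ± 14.8 in water drinkers, a difference of 0.28 ± 0.10 (adjusted p = 0.289).

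Downstream of the receptors, the 4 GIRK channel genes had a median log2 fold change of 0.17 for CNO averaged over fluids, against 0.00 over all genes. For CNO their median was 0.07 in alcohol drinkers and 0.21 in water drinkers, and for alcohol averaged over treatments it was 0.00. None of the 4 passed. Kcnj9, a GIRK subunit, averaged 66.8 CPM ± 12.2 (n = 23) under CNO treatment and 60.5 CPM ± 9.12 (n = 22) with vehicle (log2 fold change 0.14 ± 0.07, edgeR adjusted p = 0.52). Adcy8, a cyclase stimulated by calcium, averaged 14.1 CPM ± 2.60 with CNO and 12.3 CPM ± 2.54 with vehicle (0.20 ± 0.08, adjusted p = 0.37). Among the kinases, arrestins and sorting proteins, Gprasp1, which directs delta receptors to lysosomes, averaged 904 CPM ± 66.5 with CNO and 861 CPM ± 63.9 with vehicle (0.07 ± 0.03, adjusted p = 0.477). Rgs17, an RGS protein that acts on Gi and Gz subunits, had 0.07 ± 0.03 (adjusted p = 0.492) and Gnai1, a Gi alpha subunit, 0.07 ± 0.04 (adjusted p = 0.64).

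The spread between mice of a group was then compared between the genes. For each gene the group mean of log2 CPM was taken out, and the 10 pairs were correlated over the 45 libraries with permutation within groups. Points of a pair come from the same library and share its depth, dissection and RNA. The permutation test is against an r of 0 and does not compare a pair with other genes. The longest annotated transcript of Oprd1 is 4.02 kb. Among 4588 genes with transcripts of 4 to 8 kb, the upper quartile of r with Oprm1 was 0.40. It was 0.66 among 861 genes of 8 kb or more, and 0.22 over all 13660 genes with a known length. Oprm1 and Oprd1 had r = 0.69 (rho = 0.62, permutation adjusted p = 0.0001), with r = 0.63 without the 2 libraries farthest from the median of the x axis. Within the groups r was 0.19 in alcohol CNO, 0.68 in alcohol vehicle, 0.88 in water CNO and 0.76 in water vehicle mice. With block means also taken out it was 0.61. Water CNO replicate 10 was the lowest library for both genes.

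Oprl1 and Pnoc, the nociceptin receptor and its ligand's precursor, had r = 0.55 (rho = 0.55, permutation adjusted p = 0.0008), with r = 0.54 without the 2 farthest libraries. Within the groups r was 0.66 in alcohol CNO, 0.73 in alcohol vehicle, 0.14 in water CNO and 0.59 in water vehicle mice, and 0.64 with block means taken out. Oprd1 with Oprk1 (r = 0.40, rho = 0.37, permutation adjusted p = 0.0187) and Oprd1 with Pnoc (r = -0.41, rho = -0.36, permutation adjusted p = 0.0187) also passed by r. By rho the first passed (permutation adjusted p = 0.0476) and the second did not (permutation adjusted p = 0.0542). The first of these was 0.23 and the second -0.32 without the 2 farthest libraries, and both lost their call with block means taken out (r = 0.35 and r = -0.36, permutation adjusted p = 0.0554 each). Oprd1 with Oprk1 was 0.28 without the 3 libraries rich in microglia markers (permutation adjusted p = 0.199). The 6 other pairs had r between -0.22 and 0.21.

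**Figure D3:**
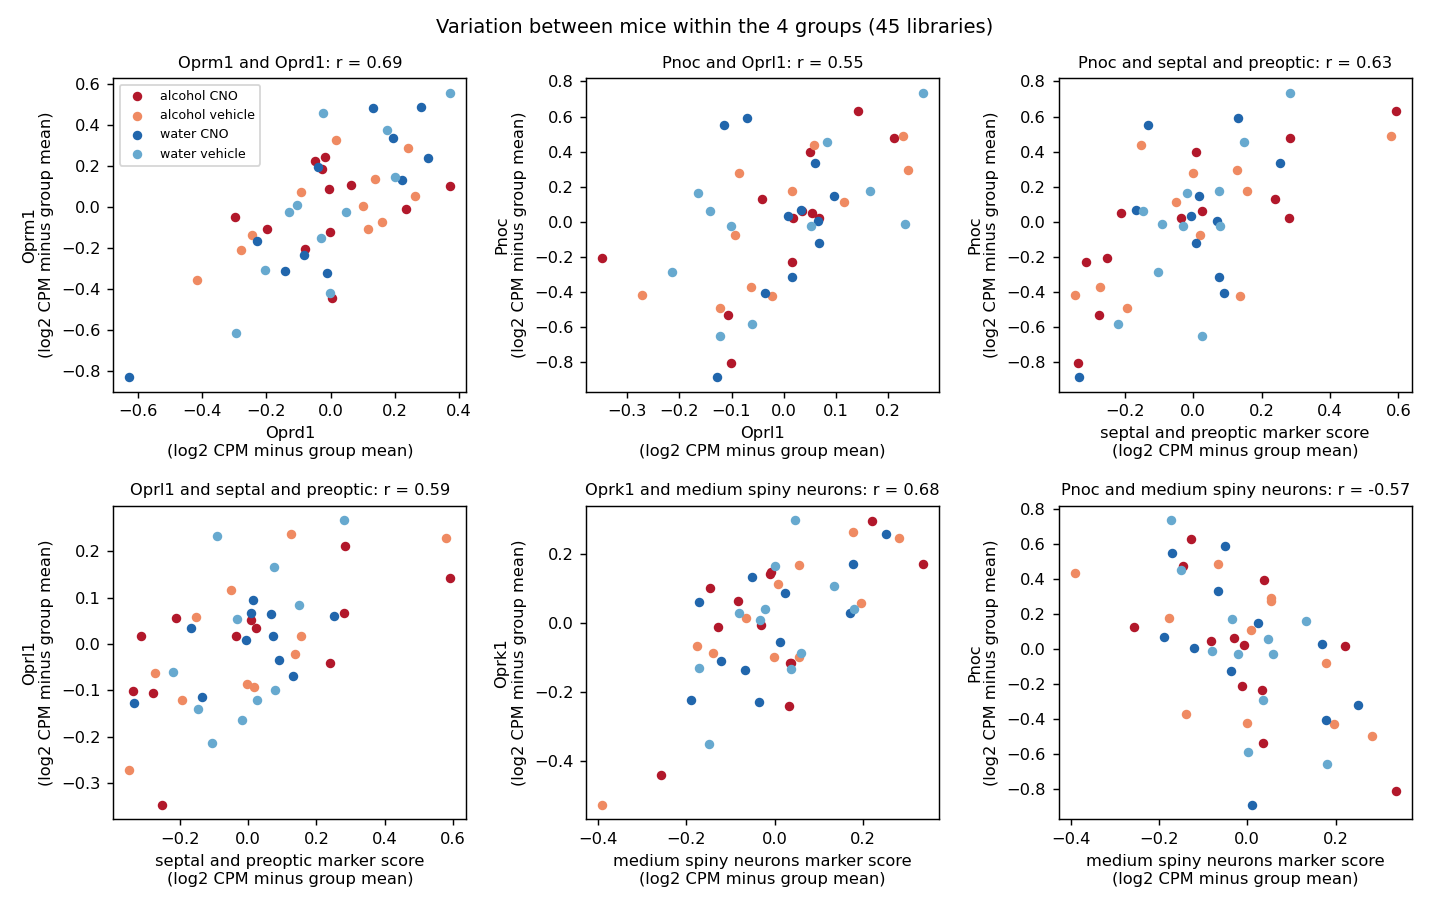
Log2 CPM minus the group mean in each of 45 libraries, coloured by group, for Oprm1 with Oprd1, Pnoc with Oprl1, and for genes against marker scores (mean log2 CPM of a marker list, also centred by group). Over all libraries r was 0.69 and 0.55 for the gene pairs, with 0.19 for Oprm1 with Oprd1 within alcohol CNO mice and 0.14 for Pnoc with Oprl1 within water CNO mice.

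The genes differed in the cell type markers they moved with. As for the pairs, the permutation test is against an r of 0 and does not compare these genes with others. The pattern is therefore not shown to be particular to them. Scores of 5 marker lists, each without the genes themselves, and the no-feature share gave 30 relations. Oprk1 and Oprd1 rose with the medium spiny neuron score, with r = 0.68 (rho = 0.57) and r = 0.64 (rho = 0.62), each with a permutation adjusted p of 0.00015. Without the 2 farthest libraries these were 0.59 and 0.54, and with block means taken out 0.67 and 0.61. Pnoc fell with the same score (r = -0.57, rho = -0.56, permutation adjusted p = 0.00042), with -0.49 without the 2 farthest libraries and -0.49 with block means taken out. The 13 medium spiny markers summed to 6323 to 9351 CPM in alcohol CNO, 5884 to 8911 in alcohol vehicle, 6273 to 8572 in water CNO and 6878 to 8623 in water vehicle mice.

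Pnoc and Oprl1 instead rose with the septal and preoptic score, with r = 0.63 (rho = 0.58, permutation adjusted p = 0.0002) and r = 0.59 (rho = 0.55, permutation adjusted p = 0.000225). Without the 2 farthest libraries these were 0.59 and 0.53, and with block means taken out 0.67 for each. Within the groups r lay between 0.46 and 0.81 for Pnoc and between 0.51 and 0.72 for Oprl1. The list holds Zic1, Zic2, Zic4, Lhx8 and other genes taken as markers of cells medial and ventral to the accumbens. Bulk counts do not show which cells made these transcripts, so cells within the accumbens are not set apart. All 10 were detected in each library. Their summed levels were 222 to 331 CPM in alcohol CNO, 232 to 336 in alcohol vehicle, 214 to 327 in water CNO and 231 to 338 in water vehicle mice. Given this score, the correlation of Oprl1 with Pnoc was 0.29, against 0.55 without it, a partial correlation chosen after seeing the data. The same pair had 0.48 given the medium spiny score and 0.63 given the no-feature share. Given the septal and preoptic score, the medium spiny score and the no-feature share together, Oprl1 with Pnoc was at 0.27. Given the same measures, Oprm1 with Oprd1 was at 0.61, Oprd1 with Oprk1 at 0.04 and Oprd1 with Pnoc at -0.27. What part tissue composition has in these correlations was not tested.

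Oprm1 itself passed with none of the 6 measures by r. The value farthest from 0 was -0.37 with the claustrum and endopiriform score (permutation adjusted p = 0.071), where rho was -0.41 and passed (permutation adjusted p = 0.0366). Its r with the other striosome markers was 0.05 (rho = 0.08), and that with the medium spiny score was 0.30 (permutation adjusted p = 0.0762). Oprk1 was lower where the cortical score was higher (r = -0.48, rho = -0.46, permutation adjusted p = 0.00425), with -0.42 without the 2 farthest libraries and -0.31 with block means taken out (permutation adjusted p = 0.102). Within the groups it was -0.45 in alcohol CNO, -0.62 in alcohol vehicle, -0.78 in water CNO and 0.06 in water vehicle mice. Glial scores were added after seeing the data, giving 15 further relations. Oprk1 fell with the astrocyte score (r = -0.65, rho = -0.60, permutation adjusted p = 0.00015) and the microglia score (r = -0.60, rho = -0.56, permutation adjusted p = 0.000975). Without the 3 libraries rich in microglia markers these were -0.59 (permutation adjusted p = 0.00255) and -0.43 (permutation adjusted p = 0.0545).

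**Figure D4:**
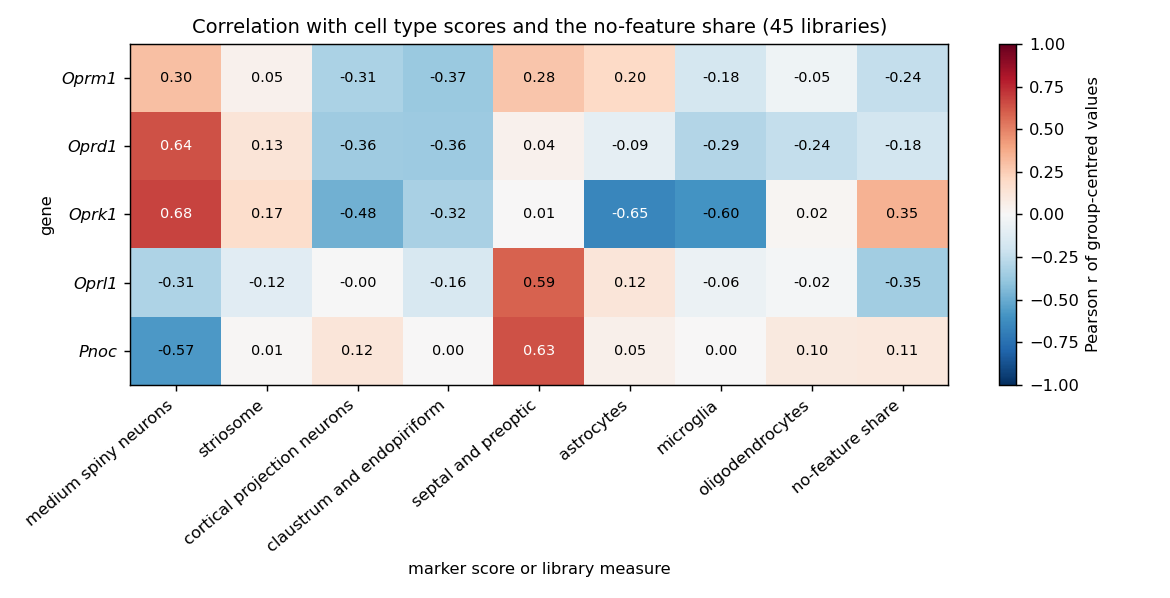
Pearson r over 45 libraries of each gene (rows) with marker scores and the no-feature share (columns), all centred by group, with blue for negative and red for positive values. Oprd1 and Oprk1 are positive with the medium spiny neuron score (0.64 and 0.68) and Oprl1 and Pnoc with the septal and preoptic score (0.59 and 0.63).

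The genes most like each member were listed by r of group-centred log2 CPM among 14156 genes over the 45 libraries, as a description. For Oprm1 these were Ksr2 (0.92), a scaffold of Ras signalling, Klf12 (0.92), a zinc finger factor, Ptch1 (0.91), the Hedgehog receptor, Tmem178b (0.90) and Ube3a (0.89), a ubiquitin ligase. For Oprd1 they were Strn (0.85), a calmodulin-binding scaffold, Smad4 (0.84), a mediator of TGF-beta signals, Gprin3 (0.83), Gpr158 (0.82) and Tcf20 (0.82). For Oprk1 they were Wdr17 (0.73), Pde1b (0.73), a phosphodiesterase of striatal neurons, Usp3 (0.72), a deubiquitinase, Dazl (0.72), an RNA-binding protein of germ cells, and Smg5 (0.72), of nonsense-mediated decay. For Oprl1 they were Alg2 (0.79), a mannosyltransferase, Impact (0.78), a regulator of translation, Nap1l5 (0.77), Rragb (0.77), a Rag GTPase, and Rwdd2a (0.76). For Pnoc they were Resp18 (0.81), a protein of dense-core granules, Gpx3 (0.80), a secreted glutathione peroxidase, Gabrq (0.79), the theta subunit of GABA-A receptors, Podxl2 (0.79) and Irs4 (0.78), an insulin receptor substrate.

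These neighbours differed in length, which was looked at after their values had been seen. The longest annotated transcripts of the 5 genes most like Oprm1 measured 5.89 to 13.1 kb, against 2.42 kb for Oprm1 itself and 8.04 kb for all its exons. Among 13660 genes with a known length, the median r with Oprm1 was -0.21 for transcripts under 2 kb, -0.08 at 2 to 4 kb, 0.12 at 4 to 8 kb and 0.42 at 8 kb or more. Oprd1 showed the same order, with medians of -0.16, -0.07, 0.10 and 0.34. The medians lay between -0.09 and 0.12 for Oprk1, 0.00 and 0.04 for Oprl1, and -0.05 and 0.02 for Pnoc. What part transcript length has in the correlation of Oprm1 with Oprd1 was not tested.

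**Figure D5:**
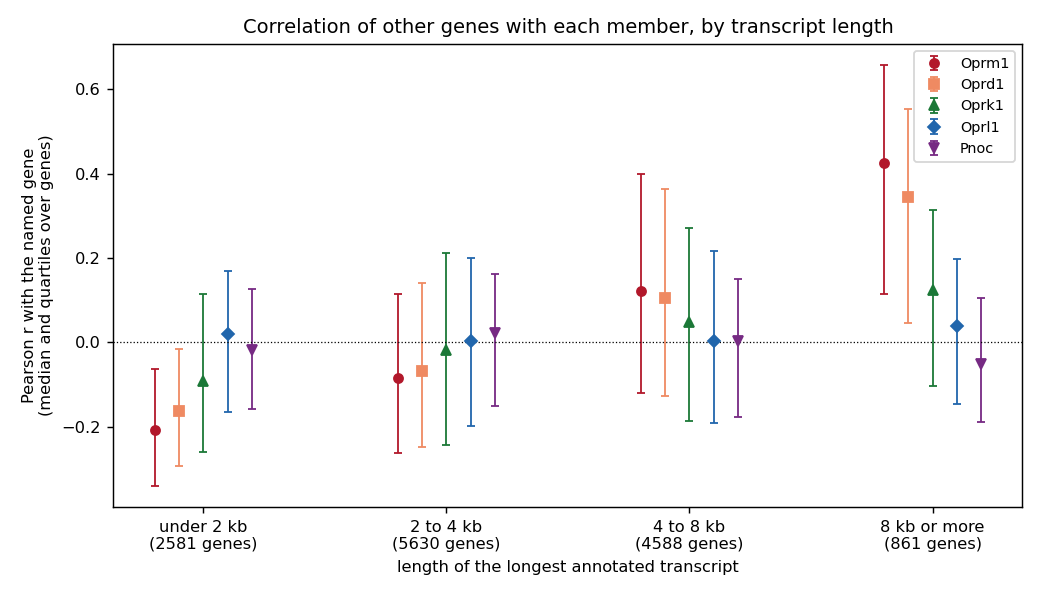
Pearson r of other genes with each of the 5 genes, as median (symbol) and quartiles (bars) over genes, by length of the longest annotated transcript. Medians climb from -0.21 to 0.42 for Oprm1 and from -0.16 to 0.34 for Oprd1 and stay near 0 for Oprl1 and Pnoc.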

How the data were processed

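RNA from nucleus accumbens punches of 45 mice was sequenced from 500 ng per sample (Illumina TruSeq, per the labels' protocols). The deposited files hold counts, raw whole numbers of reads per gene symbol, made by the authors with STAR and HTSeq 0.9.1 on GRCm38 (mm10), per the submitters' processing notes; for annotation and strand setting the sources used here give nothing. HTSeq's 5 summary rows were kept out of library sizes, and no-feature reads were 15.6% to 21.9% of uniquely aligned reads.

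The 5 members and all lists were chosen with earlier results of these data known. Genes were filtered with filterByExpr by group and TMM scaled. A quasi-likelihood model (edgeR 4.0.16, R 4.3.3, robust glmQLFit, a mean for each group) took in all 45 libraries, with 7 contrasts and Benjamini-Hochberg adjustment over 15852 genes at 0.05. SE was computed as the absolute log2 fold change over the root of F, and every p of a single gene is from edgeR unless another tool is named. Log2 CPM used a prior count of 2. Correlations over libraries used 100000 two-sided permutations within groups (smallest p 1e-05), adjusted over 30, 10 and 15 relations. Named genes were the 5 members, any listed gene that passed, otherwise the smallest p of each list in the averaged contrasts, and for likeness the 5 highest and 3 lowest r among genes with mean log2 CPM of at least 0. Some list genes chosen so are not described above, and none passed. For CNO averaged these were Npepps (log2 fold change 0.04) and Chga (0.08). For alcohol averaged they were Gnai1 (-0.03), Kcnj9 (-0.09), Adrbk1 (-0.03), Rgs10 (-0.09) and Adcy7 (0.17). Alternatives were DESeq2 1.42.0, voom (limma 3.58.1) with sample weights, RLE size factors, no filter, a mean CPM of at least 1, a threshold of 0.1, covariates (block, cortical score, no-feature share), only the groups compared, 3 libraries left out, each library left out, and a prior count of 0.5. Scripts were tested on simulated data. Groups of 11 or 12 were not screened for single outlying values. Separate mice are the replicates, per the labels' mouse numbers.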

Additional observations from a re-analysis of the deposited data

How the results depend on the processing

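No paired analysis was possible because every library is a different mouse and the labels share no number between groups. With edgeR, DESeq2 or voom none of the 5 genes was called under any alternative or with any single library left out. Directions that turned belonged to log2 fold changes near 0, and the cause was not tested. With the block as a covariate they were 0.059 for Pnoc under alcohol with vehicle, 0.034 for Oprm1 and 0.016 for Oprd1 under CNO in alcohol drinkers, and -0.021 for Oprk1 under alcohol averaged. With the no-feature share they were 0.023 for Oprm1 under CNO in alcohol drinkers, 0.012 for Oprl1 under alcohol with CNO and -0.021 for Oprk1 under alcohol averaged. With the cortical score they were -0.017 for the Oprd1 interaction and -0.031 for Oprk1 under alcohol averaged. Without the 3 libraries they were -0.056 for the Oprd1 interaction and -0.0069 for Oprk1 under CNO averaged. With voom they were 0.035 for Pnoc under CNO in alcohol drinkers, -0.055 for the Oprd1 interaction and -0.0155 for Oprk1 under CNO averaged.

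With 1 library left out, Pnoc under alcohol with vehicle ran from -0.11 to 0.041 and Oprl1 under alcohol with CNO from -0.044 to 0.0028. Under CNO in alcohol drinkers Oprm1 ran from -0.035 to 0.033, Oprd1 from -0.063 to 0.0011 and Pnoc from -0.11 to 0.018. Oprd1 ran from -0.065 to 0.021 under CNO in water drinkers and from -0.045 to 0.039 for the interaction. Under alcohol averaged Oprk1 ran from -0.014 to 0.025 and Oprl1 from -0.0046 to 0.022.

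Correlations that lost their call were Oprk1 with the cortical score (-0.31), Oprd1 with Oprk1 (0.35) and Oprd1 with Pnoc (-0.36) with block means taken out, and Oprd1 with Oprk1 (0.28) and Oprk1 with microglia (-0.43) without the 3 libraries. Those that gained one with block means taken out were Oprm1 with the claustrum score (-0.42), the septal score (0.35) and the no-feature share (-0.43), Oprd1 with the claustrum score (-0.38), and Oprl1 with the medium spiny score (-0.36) and the no-feature share (-0.39). Without the 3 libraries Oprm1 with the claustrum score (-0.40) and Oprl1 with the no-feature share (-0.42) gained one. The calls gained with block means taken out had a permutation adjusted p between 0.0307 and 0.0493. Permutations there stayed within groups but not within blocks, so calls gained or lost in that setting are approximate.

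Over all genes, the 138 called for CNO in alcohol drinkers became 0 without the 3 libraries, with only the groups compared, with the block or with voom, and 223 at 0.1, 85 with the cortical score, 221 with no filter and 19 with the no-feature share. They ran from 0 (without alcohol vehicle replicate 5) to 229 with 1 library left out. The 11 for CNO in water drinkers became 29, 24, 5, 27, 4 and 0 without the 3 libraries, with DESeq2, the no-feature share, only the groups compared, the block and voom, and 1 to 18 with 1 library left out. The 141 for CNO averaged became 57 without the 3 libraries and 47 with voom, and 99 to 204 with 1 library left out. From 0, alcohol under vehicle became 3 with DESeq2, alcohol under CNO 1 with voom, and alcohol averaged 6 with DESeq2, 98 with the no-feature share, 4 with the block and 6 with voom. Depth limits Pnoc most, at 88 reads in its lowest library.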

Other observations

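The genes least like each member, by the same group-centred r over 45 libraries, were not described above. For Oprm1 they were Cope (-0.83), a subunit of the COPI coat of transport vesicles, Pex16 (-0.79), a factor of peroxisome assembly, and Tsta3 (-0.78), an enzyme of GDP-fucose synthesis. Their longest transcripts measured 2.75, 1.39 and 1.60 kb. For Oprd1 they were Ppm1m (-0.70), a protein phosphatase, Fxyd5 (-0.68), a regulator of the sodium pump, and Arrb2 (-0.68), the arrestin that binds activated opioid receptors and a member of the kinase and arrestin list. Arrb2 averaged 36.3 CPM ± 4.14 (SD, n = 45) and had r = 0.54 with the no-feature share, against -0.18 for Oprd1. For Oprk1 they were Tle3 (-0.72), a corepressor, Wls (-0.72), which carries Wnt proteins to the cell surface, and Aqp4 (-0.71), the water channel of astrocytes. For Oprl1 they were Cacng3 (-0.72), an auxiliary subunit of AMPA receptors, Zdhhc14 (-0.70), a palmitoyltransferase, and Ngef (-0.67). For Pnoc they were Wasf1 (-0.76), of the WAVE actin complex, Erf (-0.75), a repressor of the ETS family, and Kctd1 (-0.75).

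The spread of Oprm1 was unequal between fluids. Its SD was 1.86 CPM in alcohol CNO and 2.01 CPM in alcohol vehicle mice, against 3.49 CPM in water CNO and 3.00 CPM in water vehicle mice. Pnoc had the same order in CPM, with 1.29 CPM in alcohol CNO and 1.22 CPM in alcohol vehicle mice, against 1.62 CPM in water CNO and 1.45 CPM in water vehicle mice. On the log2 scale that order of Pnoc did not hold, with an SD of 0.409 in alcohol CNO and 0.407 in water vehicle mice. Oprk1 had the opposite order to Oprm1, with 9.60 CPM in alcohol CNO and 9.56 CPM in alcohol vehicle mice, against 7.67 CPM in water CNO and 8.26 CPM in water vehicle mice. The differences in spread were not tested.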
